A study of Homo sapiens with 12 samples.

Results

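The EGF receptor family and its ligands were followed through the induction of the AP-1 subunits c-Jun and c-Fos, as 10 genes chosen by name out of the 58721 genes of the count table. The 3 receptors among them were EGFR, ERBB2 and ERBB3, and the 7 ligands were HBEGF, TGFA, AREG, EREG, BTC, EPGN and NRG1. The choice used no measured value of these genes, though earlier results of these data were known when it was made. All 10 were found in the table by gene symbol, and 9 had enough counts to be tested, EPGN being the exception.

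RNA was sequenced from EW8 and TC71, established cell lines of Ewing sarcoma, a bone and soft tissue tumour driven by the EWS-FLI1 fusion. Both lines carried the same pair of lentiviral constructs in a background labelled WT, and the control cells carried them too. One drives the Tet-On transactivator from the human EF1 alpha promoter, and the other places the joined c-Jun and c-Fos coding sequences behind a doxycycline-responsive promoter. Each line received either the solvent DMSO (vehicle) or doxycycline at 2000 ng/ml for 72 h, which gave 4 groups of 3 libraries and 12 libraries in all. The sources used here do not say whether each line was a single clone or whether the libraries of a group came from separate cultures, so p-values measure only the spread between these libraries. Doxycycline without the transgenes was not analysed here, so the effects of the drug and of the induced factors cannot be told apart.

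EGFR and its relatives ERBB2, ERBB3 and ERBB4 are receptor tyrosine kinases that pair up at the cell surface when a ligand binds and signal to the RAS and PI3 kinase pathways. The ligands are made as membrane-anchored precursors and are released by proteases such as ADAM17: HB-EGF, TGF-alpha, amphiregulin, epiregulin, betacellulin and epigen bind EGFR, while neuregulins bind ERBB3 and ERBB4. ERBB2 binds no known ligand and ERBB3 has little kinase activity of its own, so both act mainly as partners, and HBEGF is a known target of AP-1, the transcription factor made of Jun and Fos proteins.

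Total counts ran from 42860665 to 60853649 per library. JUN rose 21.9-fold in EW8 and 36.4-fold in TC71, and FOS rose 29.3-fold and 135-fold, without a distinction between transgene and endogenous transcripts. All 8 Ewing sarcoma markers examined, CD99, NKX2-2, NR0B1, STEAP1, FLI1, LIPI, BCL11B and PAX7, held at least 394 counts in every library. For some of them the vehicle and doxycycline libraries did not overlap in either line, which was not tested further: in EW8 and TC71 the mean of PAX7 went from 105.8 to 44.4 and from 105.5 to 43.8 CPM, BCL11B from 85.8 to 48.1 and from 42.0 to 21.99 CPM, LIPI from 47.7 to 18.1 and from 27.7 to 17.6 CPM, and CD99 from 806.6 to 1243 and from 558.4 to 759.6 CPM. One library stood apart: TC71 vehicle replicate 1 differed from its 2 companions by a chi-square per gene of 59.22 and 57.22, against 5.28 to 10.49 for all other pairs of libraries within a group. Of the immune markers reported here, PTPRC was at 2735 to 4044 counts in EW8 and at 0 to 6 in TC71, CD14 was at 2 to 32 counts over all libraries, and CD3E was at 0 to 2 counts throughout.

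Promoter stretches of 4 members that rose (EGFR, HBEGF, AREG and EREG) are shown because AP-1 binds DNA at a short word, TGANTCA, and related factors at TGACGTCA. The sequences are from RefSeq (GRCh38.p14), which held 10 start-site windows of 300 bases for 8 of the 10 members. They run 5′ to 3′ from 250 bases before the annotated start and stop before the first annotated exon base, with any match to either word in capitals. EGFR has 2 windows, the usual start and an alternative start inside the gene, of which the 134 bases before an annotated exon are printed.
EGFR, first start, chr7:55018767-55019016, + strand: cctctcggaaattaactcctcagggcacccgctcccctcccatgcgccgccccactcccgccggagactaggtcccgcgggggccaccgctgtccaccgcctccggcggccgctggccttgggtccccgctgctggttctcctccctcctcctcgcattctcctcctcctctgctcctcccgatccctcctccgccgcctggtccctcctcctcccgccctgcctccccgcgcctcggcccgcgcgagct
EGFR, internal start, chr7:55109589-55109722, + strand: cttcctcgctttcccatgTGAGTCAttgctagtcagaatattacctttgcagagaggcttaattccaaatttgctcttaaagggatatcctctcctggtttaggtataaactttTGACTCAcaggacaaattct
HBEGF, chr5:140346632-140346853, - strand: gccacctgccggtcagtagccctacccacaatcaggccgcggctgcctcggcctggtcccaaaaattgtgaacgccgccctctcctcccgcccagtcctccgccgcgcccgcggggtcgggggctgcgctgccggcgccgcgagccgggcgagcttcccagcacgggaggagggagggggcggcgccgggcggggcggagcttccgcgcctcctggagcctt
AREG, chr4:74444886-74445133, + strand: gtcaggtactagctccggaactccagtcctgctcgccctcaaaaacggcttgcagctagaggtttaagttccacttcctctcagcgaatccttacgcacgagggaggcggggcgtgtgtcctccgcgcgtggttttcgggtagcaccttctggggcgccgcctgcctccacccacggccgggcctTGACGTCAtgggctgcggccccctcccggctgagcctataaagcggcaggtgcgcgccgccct
EREG, chr4:74364895-74365142, + strand: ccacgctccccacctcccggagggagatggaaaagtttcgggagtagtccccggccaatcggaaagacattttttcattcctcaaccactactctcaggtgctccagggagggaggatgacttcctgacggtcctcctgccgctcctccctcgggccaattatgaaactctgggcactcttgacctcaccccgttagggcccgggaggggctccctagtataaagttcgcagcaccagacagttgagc
Matches were searched on both strands of the full windows, and neither word contains the other. The AP-1 word was present in 2 of the 10 member windows: the internal EGFR start held TGAGTCA and TGACTCA beginning at bases -232 and -136, and the ERBB2 window held TGATTCA at base -222. Of all 35116 windows in the table, 7.71% held the AP-1 word. The word TGACGTCA occurred in 1 of the 10 windows, at base -65 of AREG, and in 1.85% of all windows. Windows of HBEGF, EREG, TGFA, BTC and EPGN held neither word, which says only that these letters are absent from these short stretches.

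HBEGF, which encodes heparin-binding EGF-like growth factor, had the largest rise in CPM of the 7 ligands in both lines. It lies on the minus strand of chromosome 5 (hg38, 140332843 to 140346631). In EW8 the 3 vehicle libraries held 62, 84 and 94 counts and the 3 doxycycline libraries held 1648, 1632 and 1244. In TC71 all 3 vehicle libraries held 38 counts, and the doxycycline libraries held 2750, 2642 and 2801. In bulk RNA such as this, a change in the number of expressing cells and in the RNA per cell cannot be told apart. Vehicle and doxycycline libraries did not overlap in either line, and the TC71 libraries started lower and ended higher than those of EW8. In CPM (counts scaled to a library of fixed size, corrected for composition) the mean went from 1.64 ± 0.22 to 30.0 ± 1.98 in EW8 and from 0.692 ± 0.0693 to 64.5 ± 1.89 in TC71 (SD, n = 3 per group). The log2 fold change was 4.19 (SE 0.11) in EW8 and 6.55 (SE 0.13) in TC71, with adjusted p of 1.74e-15 and 1.37e-17 by edgeR's quasi-likelihood test with Benjamini-Hochberg adjustment over all genes tested.

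TGFA encodes transforming growth factor alpha and lies on the minus strand of chromosome 2 (70447280 to 70554193). In EW8 it was at 30, 16 and 32 counts with vehicle and at 366, 236 and 218 with doxycycline. In TC71 it was at 176, 266 and 224 counts with vehicle and at 592, 574 and 654 with doxycycline. Within each line the treated libraries all lay above the vehicle libraries, and TC71 without induction came close to the induced level of EW8. The mean rose from 0.533 ± 0.168 to 5.40 ± 1.01 CPM in EW8 and from 3.997 ± 0.552 to 14.3 ± 0.582 CPM in TC71 (SD, n = 3). The rise was 3.33 on the log2 scale in EW8 (SE 0.23) and 1.84 in TC71 (SE 0.18), and edgeR gave adjusted p of 8.58e-10 and 1.33e-07.

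**Figure D1:**
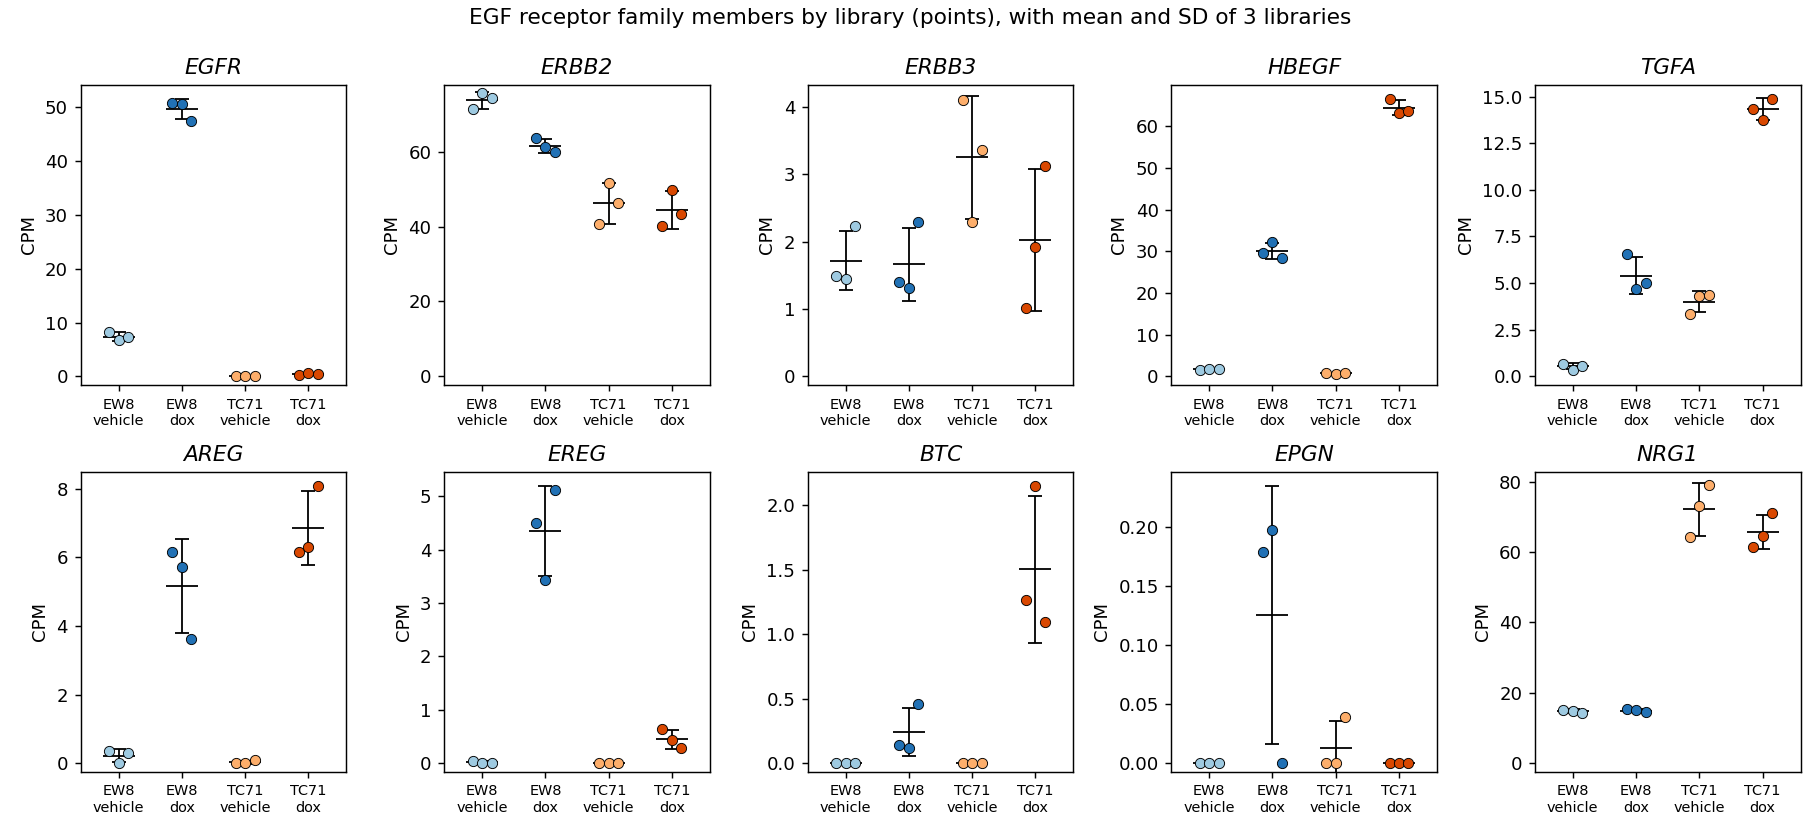
Each panel shows 1 member, with CPM on a linear axis from 0 for the 3 libraries of each group (points) and their mean and SD (bars). HBEGF, TGFA, AREG, EREG and BTC sit near the axis or low with vehicle and higher with doxycycline in both lines, EGFR reaches 47.5 to 50.9 CPM only in induced EW8 libraries, and ERBB2 and NRG1 separate by line in both treatments.

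AREG, EREG, BTC and EPGN form a cluster of 4 ligand genes within 486 kb of chromosome 4 (74308473 to 74794686), a span that holds 6 genes of the table. The remaining 2 genes there have no gene symbol and stayed at 0 to 4 counts in every library. The first 3 of these ligands were close to silent with vehicle and rose in both lines, but to very different levels.

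AREG encodes amphiregulin (plus strand, 74445134 to 74455009). EW8 vehicle libraries held 16, 0 and 16 counts and EW8 doxycycline libraries 344, 290 and 158. TC71 vehicle libraries held 0, 0 and 4 counts and TC71 doxycycline libraries 254, 264 and 356. Treated libraries of the 2 lines covered overlapping ranges, and none of them came near a vehicle library. In EW8 the mean went from 0.216 ± 0.191 to 5.17 ± 1.37 CPM (SD, n = 3). The log2 fold change there was 4.55 with an SE of 0.51, and edgeR's adjusted p was 7.02e-07. The ratio of the means was 23.9, and it was 35.9 without EW8 vehicle replicate 1 and 15.9 without EW8 vehicle replicate 2. In TC71 the vehicle group was at the floor, meaning that no library had more than 6 counts (3 read pairs), so the fold can only be bounded: AREG was at least 58.9-fold higher with doxycycline, at 6.855 ± 1.08 CPM (SD, n = 3, adjusted p = 1.51e-08 by edgeR).

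EREG encodes epiregulin (plus strand, 74365143 to 74388751). It was at 2, 0 and 0 counts in EW8 with vehicle and at 252, 174 and 224 with doxycycline. In TC71 it was at 0 counts in all 3 vehicle libraries and at 26, 18 and 12 with doxycycline. The 3 induced EW8 libraries lay well above the 3 induced TC71 libraries. EREG was thus at least 32.2-fold higher with doxycycline in EW8 and at least 3.82-fold higher in TC71, with adjusted p of 4e-08 and 1.3e-05 by edgeR.

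BTC, which encodes betacellulin (minus strand, 74744759 to 74794686), showed the opposite order of the lines. It had 0 counts in all 6 vehicle libraries, 8, 6 and 20 counts in induced EW8 and 52, 90 and 48 in induced TC71. The lowest induced EW8 library equals the floor of 6 counts, while every induced TC71 library was above every EW8 library. BTC was at least 1.77-fold higher with doxycycline in EW8 and at least 12.9-fold higher in TC71, where edgeR gave adjusted p of 0.00117 and 1.5e-05. The EW8 bound rested on 1 library: without EW8 doxycycline replicate 3 the mean of the induced libraries was not above the floor and no fold could be given. EPGN, which encodes epigen (plus strand, 74308473 to 74315307), was at 10, 10 and 0 counts in induced EW8 and at 0 to 2 counts in the other 9 libraries, and was not tested. AREG, EREG and BTC passed the filter on low counts only through their induced libraries, so a difference in these 3 genes was partly fixed by that filter.

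NRG1 encodes neuregulin 1, the ligand of ERBB3 and ERBB4, and lies on chromosome 8. It was abundant in every group. EW8 libraries held 675, 686 and 794 counts with vehicle and 856, 766 and 630 with doxycycline. TC71 libraries held 3367, 4543 and 4076 counts with vehicle and 2542, 2699 and 3124 with doxycycline, where totals were also lower. On the CPM scale the treatments overlapped in both lines, with means of 14.8 ± 0.495 and 14.95 ± 0.495 in EW8 and 72.2 ± 7.46 and 65.7 ± 4.85 in TC71 (SD, n = 3). The log2 fold changes were 0.01 (95% interval -0.17 to 0.20) and -0.14 (-0.31 to 0.04), and neither passed the test (adjusted p = 0.919 and 0.194 by edgeR). Without TC71 vehicle replicate 1, the library that stood apart, the TC71 value was -0.29 with adjusted p = 0.00257 by edgeR, and with library size alone as the scaling it was -0.23 with adjusted p = 0.027, both short of the fold limit.

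Among the receptors, EGFR was the only one called in either line. It lies on the plus strand of chromosome 7 (55019021 to 55211628). EW8 vehicle libraries held 365, 309 and 402 EGFR counts and EW8 doxycycline libraries 2843, 2565 and 2079. TC71 vehicle libraries all held 0 counts and TC71 doxycycline libraries 8, 22 and 18. The induced EW8 libraries were above all others, and the induced TC71 libraries stayed below the uninduced EW8 libraries. In EW8 the mean rose from 7.396 ± 0.764 to 49.7 ± 1.91 CPM (SD, n = 3). On the log2 scale the rise was 2.75 with an SE of 0.14, and edgeR's adjusted p was 1.3e-10. In TC71 it was at least 3.23-fold higher with doxycycline, reaching 0.376 ± 0.168 CPM (SD, n = 3, adjusted p = 2.13e-06 by edgeR). EGFR passed the filter on low counts through its EW8 libraries, and it was not tested with the TC71 libraries alone. EGFR shares exon bases with EGFR-AS1 on the opposite strand, and reads falling on both were left out by the counting.

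ERBB2, also called HER2 (chromosome 17, plus strand, 39687914 to 39730426), was the most abundant receptor per length in all 4 groups. It held 3163, 3475 and 4137 counts in EW8 with vehicle and 3556, 3101 and 2628 with doxycycline, and 2129, 3202 and 2392 against 1652, 2088 and 1909 in TC71. After scaling, the EW8 groups did not overlap (73.8 ± 2.24 and 61.6 ± 1.85 CPM) and the TC71 groups did (46.2 ± 5.46 and 44.5 ± 5.01 CPM, SD, n = 3). The decrease in EW8 passed the adjusted p limit but not the fold limit: the log2 value was -0.26, its SE was 0.09 and its adjusted p by edgeR was 0.0209. It missed the adjusted p limit without any 1 EW8 doxycycline replicate, EW8 vehicle replicate 2 or 3, or TC71 vehicle replicate 3 (0.0696 to 0.174 by edgeR). The same held with at least 10 counts required in every library (0.0784). In TC71 the log2 value was -0.06 (95% interval -0.24 to 0.13, adjusted p = 0.651 by edgeR). ERBB2 shares exon bases with PGAP3 and MIEN1 on the other strand.

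ERBB3 (chromosome 12, plus strand, 56076799 to 56103505) was scarce and variable. It was at 66, 66 and 124 counts in EW8 with vehicle and at 78, 66 and 100 with doxycycline. In TC71 it was at 215, 142 and 173 counts with vehicle and at 42, 80 and 137 with doxycycline. The treatments overlapped in both lines on the CPM scale. The log2 fold changes were -0.06 (95% interval -0.83 to 0.70, adjusted p = 0.92) in EW8 and -0.68 (-1.43 to 0.06, adjusted p = 0.131) in TC71 by edgeR. The TC71 value depended on 1 library: without TC71 doxycycline replicate 3 it was -1.14, with adjusted p = 0.0202 by edgeR. ERBB3 shares exon bases with an unnamed gene on its own strand.

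**Figure D2:**
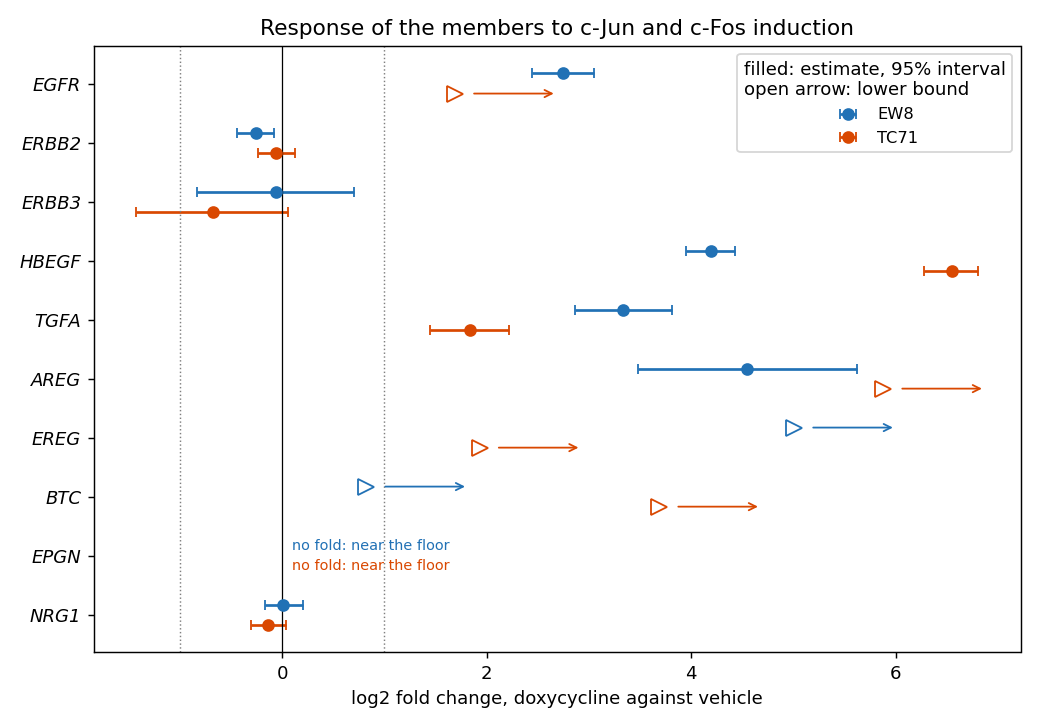
The horizontal axis gives the log2 fold change of doxycycline against vehicle for each member in EW8 (blue) and TC71 (orange), as an estimate with its 95% interval or, where vehicle was at the floor, as a lower bound (open arrowhead). The dotted lines mark the fold limit of 1 on the log2 scale. The intervals of HBEGF and TGFA in both lines and of EGFR and AREG in EW8 lie beyond it. Those of NRG1 and ERBB2 lie within it, and the BTC bound in EW8 is short of it.

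A gene was called where its adjusted p was under 0.05 and its log2 fold change was over 1 in either direction. By that rule 6 of the 10 members, EGFR, HBEGF, TGFA, AREG, EREG and BTC, were higher with doxycycline in EW8 and 0 were lower, where 11.4% of all 21013 genes tested were called higher and 3.38% lower. That count includes AREG, EREG and BTC, which the filter admitted only through induced libraries. The EW8 call of BTC rests on a fitted log2 fold change of 6.55, while its bound of 1.77-fold is short of the fold limit. With the libraries of 1 line alone, 8 members could be tested and 5 were called in each line. BTC in EW8 and EGFR in TC71 were then not tested. With at least 10 counts required in every library 5 members could be tested and 2 were called in each line. In TC71 EGFR, HBEGF, TGFA, AREG, EREG and BTC were also the 6 members called higher and 0 were lower, against 12.3% and 3.67% of all genes. At an unadjusted p under 0.05 in edgeR, 1 member was lower in EW8 and 0 in TC71, and DESeq2 called 0 lower in either line. Without TC71 vehicle replicate 1, the library that stood apart, the 6 calls in TC71 stayed in number, with log2 fold changes of 6.50 for HBEGF and 1.65 for TGFA. ERBB2, ERBB3 and NRG1 were tested and not called in either line. Summed markers of other cell types also differed between the treatments, as the Ewing sarcoma markers PAX7, BCL11B, LIPI and CD99 did. The summed level of 4 epithelial markers, EPCAM, CDH1, KRT8 and KRT18, ran from 9.56 to 10.2 CPM in EW8 vehicle libraries and from 50.7 to 54.8 CPM with doxycycline, and from 176.5 to 215.3 CPM against 227 to 241 CPM in TC71, with CDH1 never above 18 counts. KRT18 held most of that sum in TC71, at a mean of 193.7 and 218.1 CPM. The summed level of 3 endothelial markers, PECAM1, CDH5 and VWF, ran from 7.22 to 8.48 CPM against 36.1 to 43.7 CPM in EW8, and from 0 to 0.0388 CPM against 3.75 to 4.61 CPM in TC71. PECAM1 held most of the EW8 sum, with means of 7.07 and 37.5 CPM. CDH5 went the other way in EW8, from 0.873 to 0.601 CPM, with overlapping libraries. The part of such changes in the results for the receptors and ligands was not tested.

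The next comparison asked whether the lines responded to different degrees. It takes the log2 fold change in TC71 minus that in EW8, in the same edgeR fit, and 4.18% of all genes tested were called higher in that difference and 2.87% lower. The induced genes differed in it too: FOS by 2.21 (SE 0.09, adjusted p = 6.41e-12 by edgeR) and JUN by 0.73 (SE 0.15, adjusted p = 0.00217), short of the fold limit. The part of this in the differences below was not tested. Of the members, 3 were called higher and 1 lower. HBEGF rose more in TC71, by 2.35 on the log2 scale (SE 0.18, adjusted p = 2.5e-08), and TGFA rose less, with a difference of -1.49 (SE 0.29, adjusted p = 0.00115). For AREG the difference was 3.45 (SE 1.05, adjusted p = 0.0277), but it rested on TC71 vehicle libraries with 0, 0 and 4 counts and was lost without EW8 vehicle replicate 1 or 3, EW8 doxycycline replicate 3, TC71 vehicle replicate 2 or TC71 doxycycline replicate 3, with adjusted p of 0.0514 to 0.106 by edgeR. For EGFR the fitted difference of 4.47 (SE 1.11, adjusted p = 0.00919 by edgeR) is no measure of a stronger response in TC71. Its vehicle libraries were all at 0, the fold there is known only as at least 3.23, and the fold in EW8 was 6.72. ERBB2 (0.20, 95% interval -0.06 to 0.46), ERBB3 (-0.62, -1.69 to 0.45) and NRG1 (-0.15, -0.40 to 0.10) did not pass the test, and BTC gave no estimate. EREG did not pass it either (-0.61, -2.69 to 1.48, adjusted p = 0.755 by edgeR). Its vehicle groups were at the floor in both lines, so a different response of EREG is not established. Without TC71 vehicle replicate 1 the NRG1 difference was -0.35 with adjusted p = 0.019 by edgeR, short of the fold limit.

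Before induction the lines already differed in these genes. With vehicle, EGFR was at least 63.5-fold lower in TC71 than in EW8, where its level was 7.396 CPM, and HBEGF was lower by a log2 difference of -1.25 (SE 0.15, adjusted p = 1e-06 by edgeR). TGFA was higher in TC71 by 2.90 on the log2 scale (adjusted p = 2.78e-09) and NRG1 by 2.29 (adjusted p = 1.2e-13), and the libraries of the lines did not overlap for either gene. AREG was called at least 1.86-fold lower in TC71 (adjusted p = 0.012 by edgeR), but 1 EW8 vehicle library was at 0 too, the lines overlapped, and the call was lost without EW8 vehicle replicate 1 or 3 (adjusted p = 0.0606 and 0.0536). The bound was 1.23 without EW8 vehicle replicate 1 and 2.78 without EW8 vehicle replicate 2. These calls make 2 members higher and 3 lower in TC71, beside 11.6% and 18.9% of all genes. ERBB2 was lower in TC71 by a log2 difference of -0.67 (SE 0.09) and ERBB3 higher by 0.91 (SE 0.36), both past the adjusted p limit and short of the fold limit. ERBB3 passed the fold limit without EW8 vehicle replicate 3 (1.18) or TC71 vehicle replicate 2 (1.11).

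After induction, EGFR was 132-fold lower in TC71 than in EW8 (log2 difference -7.03, SE 0.20, adjusted p = 4.2e-14 by edgeR) and EREG was 9.8-fold lower (-3.29, SE 0.43, adjusted p = 4.7e-06). HBEGF was higher in TC71 by 1.10 on the log2 scale (SE 0.09, adjusted p = 4.36e-09), TGFA by 1.40 (SE 0.18), BTC by 2.66 (SE 0.67, adjusted p = 0.0033) and NRG1 by 2.14 (SE 0.09). Without EW8 doxycycline replicate 3 the HBEGF value was 0.99, just under the fold limit, and the BTC value was 3.42, which took the ratio of the BTC means from 6.27 to 11.5. AREG reached similar levels, with a log2 difference of 0.41 whose 95% interval ran from -0.39 to 1.20 (adjusted p = 0.368 by edgeR). In all, 4 members were higher and 2 lower in TC71 with doxycycline, against 12.6% and 18.4% of all genes. The induced TC71 cells thus had more of HBEGF, TGFA and BTC transcript and far less EGFR transcript than the induced EW8 cells.

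Levels of different genes were compared per kilobase of exon, with EGF itself and ERBB4 added to complete each set. The 7 EGFR ligands summed to 3.87 ± 0.162 CPM per kb in EW8 vehicle libraries and 18.1 ± 1.1 in EW8 doxycycline libraries, and to 2.97 ± 0.399 and 30.8 ± 0.718 in TC71 (SD, n = 3). EGF, the founding ligand, stayed at 3.09 and 3.05 CPM per kb in EW8 and at 1.92 and 1.79 in TC71, so its share of the sum went from 79.8% to 16.9% and from 63.8% to 5.81%. HBEGF took its place as the most abundant of the 7, from 14.1% to 54.9% in EW8 and from 7.74% to 69.4% in TC71. After induction AREG held 17.1% of the ligand sum in EW8, level with EGF, and was second in TC71 with 13.5%. TGFA made up 27.7% of the sum in TC71 with vehicle and 9.36% with doxycycline, although its level rose from 0.805 to 2.88 CPM per kb. The sum rose by a larger fold there, from 2.97 to 30.8. In EW8 the TGFA share went from 2.75% to 5.99%.

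The 4 receptors summed to 9.90 ± 0.176 CPM per kb in EW8 with vehicle and 11.9 ± 0.25 with doxycycline, and to 5.34 ± 0.52 and 5.05 ± 0.539 in TC71 (SD, n = 3). ERBB2 made up 72.2% of the EW8 receptor sum before and 50.1% after induction, while EGFR went from 5.98% to 33.3%. In TC71 ERBB2 made up 83.7% and 85.3%, and EGFR was 0.581% of the sum after induction. ERBB4 was second in EW8 with vehicle, at 19.9%, and ERBB3 never exceeded 9.43% in any library.

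**Figure D3:**
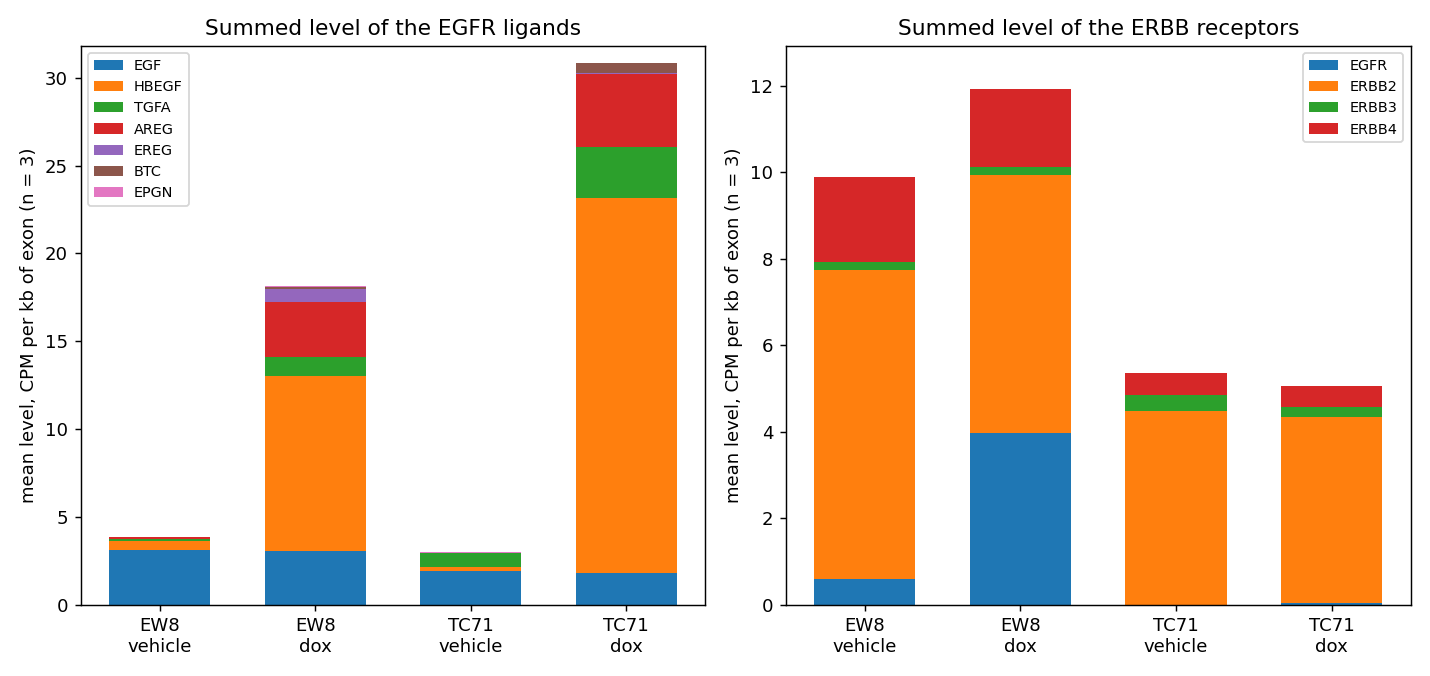
Stacked bars give the mean level of each EGFR ligand (left) and each ERBB receptor (right) in CPM per kb of exon, 3 libraries per group. The ligand bars grow from 3.87 to 18.1 in EW8 and from 2.97 to 30.8 in TC71, mostly through HBEGF, and EGFR adds a visible block to the receptor bar only in EW8.

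The other genes of the pathway were taken as 34 genes in 4 lists, of which 32 could be tested. In EW8 4 of them were higher with doxycycline and 0 lower, and in TC71 4 were higher and 0 lower, under the same rule and background shares as for the members (11.4% and 12.3% of all genes higher). Their median log2 fold change was -0.02 in EW8 and 0.10 in TC71, near the medians of -0.03 and 0.00 over all genes tested. At an unadjusted p under 0.05 in edgeR, 7 were lower in EW8 and 3 in TC71, and DESeq2 called 0 lower in either line. Of the 5 other family members, EGF (-0.02 and -0.09), ERBB4 (-0.13 and -0.05) and NRG4 (0.44 and -0.45) were not called in EW8 or TC71. NRG3 was at 42 to 70 counts in EW8 with vehicle and 16 to 40 with doxycycline (log2 fold change -1.01, adjusted p = 0.164 by edgeR) and at 0 in all TC71 libraries. NRG2, a neuregulin, rose in TC71 by 1.84 on the log2 scale (SE 0.54, adjusted p = 0.00879 by edgeR), from 24 to 33 counts to 68 to 91. In EW8 it was at 0 to 6 counts with vehicle and 4 to 16 with doxycycline and was not called (adjusted p = 0.126 by edgeR). A different response of NRG2 in the 2 lines is not established (difference 0.41, adjusted p = 0.855 by edgeR).

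Of the 6 genes for ligand release, RHBDF1, an inactive rhomboid that helps ADAM17 mature and reach the surface, rose in both lines, by 1.47 (SE 0.13) in EW8 and 2.09 (SE 0.13) in TC71 on the log2 scale. Its relative RHBDF2 rose in EW8 by 1.39 (SE 0.13), and in TC71 its value of 0.78 was under the fold limit. ADAM17, a shedding protease of several of these ligands, was at 0.80 (SE 0.08) and 0.96 (SE 0.08), past the adjusted p limit in both lines and short of the fold limit in both. ADAM10, another protease of this list, was at -0.12 (SE 0.06) in EW8 and 0.44 (SE 0.06) in TC71. It passed the adjusted p limit in TC71 alone and was short of the fold limit. Of the 12 genes for restraint and turnover of the receptors, 1 was called: ERRFI1, whose product binds and inhibits the EGFR kinase. It held 554 to 752 counts in EW8 with vehicle and 13345 to 16741 with doxycycline, and 3334 to 3569 against 45867 to 53650 in TC71. That is a log2 fold change of 4.43 (SE 0.09) in EW8 and 4.23 (SE 0.08) in TC71, with adjusted p of 2.14e-17 and 1.51e-17 by edgeR.

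Of the 11 adaptors and first effectors, 1 was called: EPS8, an EGFR kinase substrate, rose by 1.87 (SE 0.09) in EW8 and 2.24 (SE 0.09) in TC71 on the log2 scale. Besides ADAM17, other listed genes passed the adjusted p limit in both lines and were short of the fold limit in both. CBL (0.33 and 0.59), EPS15 (0.22 and 0.18) and PIK3CA (0.39 and 0.24) were higher. GAB1 (-0.61 and -0.85), PIK3R1 (-0.37 and -0.75) and LRIG3 (-0.27 and -0.27) were lower. Of the 32 genes tested, 0 were called in the difference between the responses of the lines, where 5 were higher and 3 lower in TC71 at adjusted p under 0.05 without the fold limit, by edgeR. At an unadjusted p under 0.05 these counts were 10 and 3, and DESeq2 called 0. For the rule without a fold limit the shares of all genes were 12.2% and 7.07%.

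**Figure D4:**
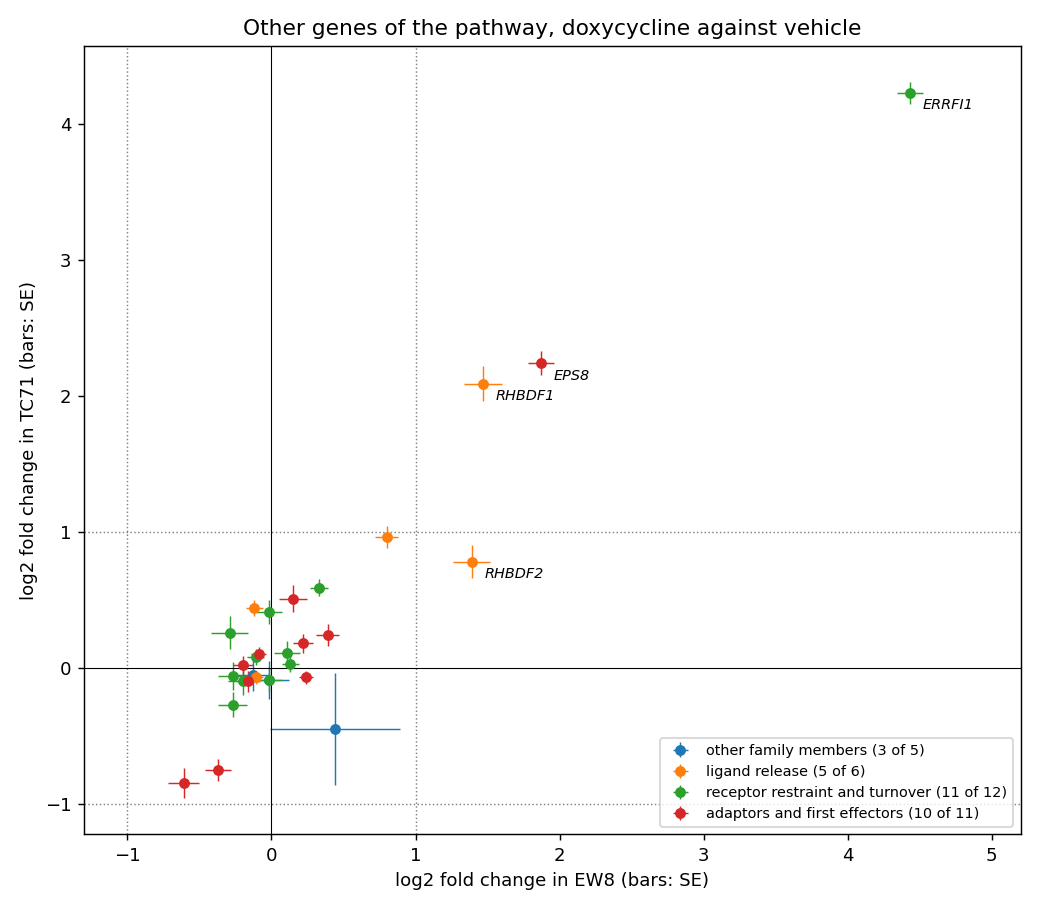
Each point is a pathway gene outside the 10 members, with its log2 fold change in EW8 on the horizontal and in TC71 on the vertical axis, bars giving the SE and dotted lines the fold limit. Genes at the floor in a group, NRG2 among them, are left out, and genes called in a line are named. ERRFI1, at 4.43 and 4.23, stands far from the other points, and EPS8, RHBDF1 and RHBDF2 lie past the limit in at least 1 line.

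The receptor with the highest mean CPM over the 12 libraries was ERBB2 (56.5) and the ligand was NRG1 (41.9), and the genes with the most similar log2 CPM pattern were sought for both. For ERBB2 these were EPM2A, PDZD2 and CORO1A, with Pearson's r of 0.986, 0.984 and 0.983 over 12 libraries. For NRG1 they were CSAG1, AFAP1 and LINC01291, with r of 0.998, 0.997 and 0.997. The 12 points fall by line and treatment, so these values describe mostly how the lines differ and carry no test.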

How the data were processed

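Polyadenylated RNA was prepared with a stranded kit and sequenced as read pairs. The authors aligned reads with STAR to hg38 and deposited whole-number counts per gene of GENCODE release 29, made with featureCounts 2.0.1. Per the file headers, no option for pairs, strand, multi-mapped or overlapping reads was set. Each mate therefore counted by itself (67.3% to 69.8% of counts from 20 to 199 were even), and reads on more than 1 gene or place were dropped. Symbols matched 58252 genes (99.2%).

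All 12 libraries entered 1 edgeR 4.0.16 quasi-likelihood fit in R 4.3.3 (filterByExpr, TMM scaling, 4 groups as levels, common dispersion 0.0143). The 21013 genes tested held 99.95% of counts, and p-values were Benjamini-Hochberg adjusted over them. The scripts were tested on simulated data. A group with no library over 6 counts was at the floor, and a fold against it is a bound, the mean CPM of the other group over the highest CPM of that floor. Fitted fold changes of such genes depend on the prior count. Floors cover counting error only. Alternatives were the main fit without the fold limit, DESeq2 1.42.0, other scalings and filters, a replicate block, the libraries of 1 line alone, and leaving out each library. The members and lists were chosen with earlier results of these data known. Named were the members, JUN, FOS, the other family members, list genes called in either line, and the 3 genes most like the most abundant receptor and ligand. ADAM17, ADAM10, CBL, EPS15, PIK3CA, GAB1, PIK3R1 and LRIG3 were added after their values were seen.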

Additional observations from a re-analysis of the deposited data

Results flagged for a closer look

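In the edgeR test of the difference between the responses of the lines, TC71 minus EW8 on the log2 scale, 4 members passed the limits: HBEGF at 2.35, TGFA at -1.49, AREG at 3.45 and EGFR at 4.47. For HBEGF and TGFA every vehicle library of both lines had 16 counts or more, so these differences do not rest on a group at the floor. For EGFR and AREG the TC71 vehicle libraries were at the floor, and the fitted values are no measure of size. For EGFR a difference of the responses is not established, since the fold in TC71 is known only as at least 3.23 against 6.72 in EW8. The AREG call was lost in 5 of the fits that left out 1 library, with the replicate block (adjusted p = 0.0578) and with DESeq2 (adjusted p = 0.105).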

How the results depend on the processing

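Over 43 pairs of member and comparison and 20 alternatives, 813 values were set beside the main ones: 787 kept their direction and side of the limits, 10 fell short of a limit, 7 passed one and 9 changed sign. The alternative without a fold limit reused the values of the main fit, so its values could only stay or pass. Requiring at least 10 counts in every library left 5 members to test, without EGFR, AREG, EREG and BTC. The called members were then 2 in EW8, 2 in TC71, 2 for the difference of the responses, 3 between the lines with vehicle and 3 with doxycycline, a change that follows from the fewer genes tested. The values that changed sign were all small and uncalled. NRG1 in EW8 was -0.04 with library size alone. ERBB3 in EW8 was 0.00 with the stricter filter and ran from -0.31 to 0.22 when each library was left out, above 0 without EW8 vehicle replicate 3 or EW8 doxycycline replicate 1 or 2. Leaving out each library, ERBB2 in TC71 ran from -0.22 to 0.03 (above 0 without TC71 doxycycline replicate 1 or vehicle replicate 2), its difference of responses from -0.01 (without TC71 vehicle replicate 1) to 0.29, and ERBB3 between the induced lines from -0.17 (without TC71 doxycycline replicate 3) to 0.61. The cause was not tested. The AREG difference of responses also missed the limit with DESeq2 (adjusted p = 0.105).

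Same-numbered libraries did not deviate together (correlations of deviations from -0.028 to 0.0098), which gives no sign of pairing by number. It cannot exclude pairing, since the correlations run over all genes tested and include the counting error of scarce genes. With the replicate block 6 members were called in EW8, 6 in TC71, 3 in the difference of the responses, 5 between the lines with vehicle and 6 with doxycycline. The lost one was AREG, at 3.45 with adjusted p = 0.0578 by edgeR. Depth limits EPGN, BTC in EW8 and EGFR and EREG in TC71, where counts in induced libraries ran from 0 to 26.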
